A study of Mus musculus with 15 samples.

Results

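The genes described here are 38 components of the DNA replication machinery, taken as a list of named symbols by their function; the list was drawn up with earlier results of these data known. All 38 were found in the table of 44827 genes, and all 38 were among the 13927 genes that reached at least 1 CPM, a count scaled to library size, in at least 3 of the 15 libraries. RNA was sequenced from mouse bone marrow sorted as LSK cells, which lack mature blood markers but carry the surface proteins Sca1 and cKit, a fraction rich in hematopoietic stem cells and their first descendants. There were 5 groups of 3 libraries, all of strain C57BL/6: Tet2-/- Nras(G12D) double mutants with leukemia, the same double mutants without leukemia, Tet2-/-, Nras(G12D) and wild type (WT). The alleles were conditional and specific to blood-forming tissue, and the driver of the recombination is not given in the labels. The design text names 6 months of age for the animals whose methylome was examined. The short descriptions of the leukemic libraries alone carry the letters BMT, whose meaning is not given, so whatever those letters stand for cannot be told apart from leukemia. The labels do not tell if replicate libraries stem from different mice; the p-values therefore reflect library-to-library spread, part of which may be technical.

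Before a cell copies its DNA, the origin recognition complex, Cdc6 and Cdt1 load the ring-shaped MCM helicase onto origins, and Cdc45 and the GINS complex then turn the loaded ring into the active helicase. Primase and DNA polymerase alpha lay down primers, replication protein A coats the exposed single strands, the clamp loader places the PCNA clamp, and polymerases delta and epsilon extend both strands, while ribonucleotide reductase, thymidylate synthase and thymidine kinase supply the nucleotides. Most of these genes are transcribed as cells enter S phase, in large part through E2F transcription factors, so their RNA is often read as a sign of cycling cells. LSK cells mix rarely dividing stem cells with fast dividing progenitors, and in a bulk library fewer cells of a type and less RNA per cell cannot be told apart.

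The libraries held between 22733189 and 43562909 counts, and 3 counts corresponded to between 0.0775 and 0.127 CPM. Every member was well above that level except Fen1, whose lowest library had 21 counts. Kit and Ly6a, the genes of the 2 sorted surface proteins, were present in every library. Kit stood at 375 to 673 CPM in the leukemic libraries, 688 to 1164 CPM in non-leukemic double mutants and 1130 to 1421 CPM in WT. Nras(G12D) library 1, at 434 CPM, lay within the leukemic range. The summed level of 11 erythroid markers was highest in leukemic libraries 2 and 3, above every library of the other groups. It was 1788, 13480 and 6677 CPM in leukemic libraries 1, 2 and 3. The sum was between 1180 and 1591 CPM in non-leukemic double mutants, and between 1492 and 1648 CPM in WT. Leukemic library 1 lay above both of these groups but below Tet2-/- libraries 1 and 3 and Nras(G12D) library 2. None of the 11 was at 0 in any library. Libraries 1 and 3 of Tet2-/- stood apart from library 2, and their levels across genes fell with GC content (Spearman rho -0.30 and -0.36 across genes, which are not independent replicates), while the other 13 libraries had rho between -0.10 and 0.28. The Y-linked gene Ddx3y stood at 91.5 to 259 CPM in leukemic library 1, double-mutant library 1, Tet2-/- libraries 1 and 2 and Nras(G12D) library 2 and at no more than 0.457 CPM in the other 10 libraries, all of WT included. The groups thus held RNA of males unevenly. Tet2 itself stood at 35.9, 59.8 and 49.3 CPM in Tet2-/- and at 65.2, 50.7 and 61.0 CPM in WT. A gene-level count does not show the loss of part of a gene, and the deleted exons are not given in the labels.

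In WT cells the replication genes spanned a wide range of levels per transcript length. The helicase subunits Mcm7 and Mcm3 and the sliding clamp Pcna were highest, at 215, 203 and 187 CPM per kb of the longest coding transcript. Fen1, the nuclease that trims Okazaki fragments, was lowest at 0.572 CPM per kb, followed by Orc1 at 7.94 and Gins2 at 11.8 CPM per kb. Fen1 shares 78.8% of its exonic bases with Gm10143 on the opposite strand and Gins2 shares 67.3% with Gse1, and the treatment of shared bases in counting was not stated in the sources, which leaves both levels uncertain. Summed over the 38 genes, the level was 10012, 17343 and 13544 CPM in leukemic libraries 1, 2 and 3, and 7403, 7668 and 6076 CPM in non-leukemic double mutants. The sum was 9175, 9093 and 8918 CPM in Tet2-/-, 6132, 11559 and 8051 CPM in Nras(G12D), and 7352, 9118 and 8609 CPM in WT. All 3 leukemic sums lay above every non-leukemic double mutant and every WT sum, and the non-leukemic double mutants overlapped WT.

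**Figure D1:**
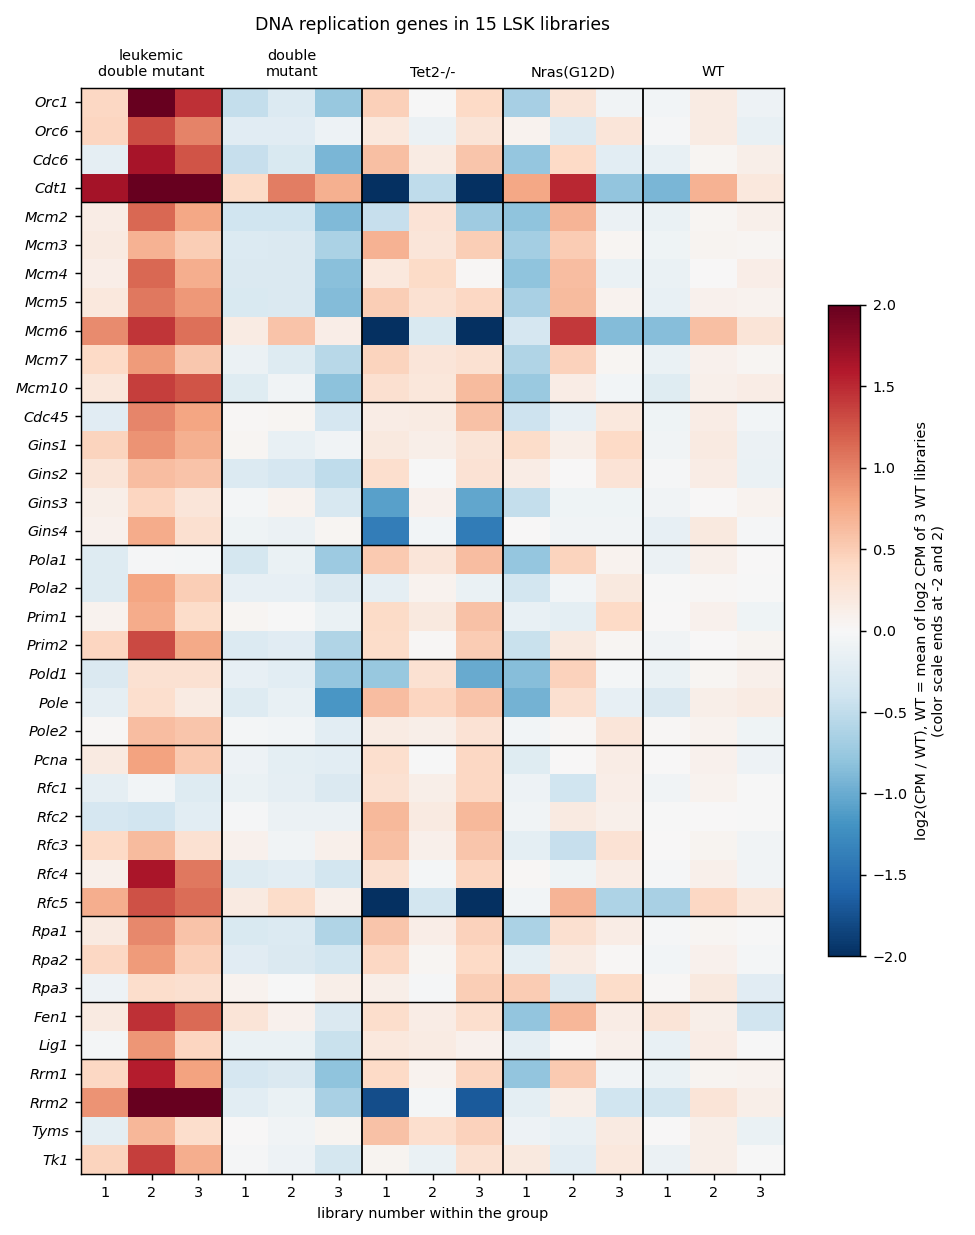
Level of each of the 38 replication genes in each of the 15 libraries, as log2 difference from the WT mean (colour), with genes in rows grouped by role and libraries in columns grouped by genotype. Leukemic libraries 2 and 3 are the most uniformly high columns, and in Tet2-/- libraries 1 and 3 a few genes (Cdt1, Mcm6, Rfc5, Gins4 and Rrm2 among them) are low beside members that are high.

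Over all 5 groups, 21 of the 38 genes differed by limma's moderated F test at an adjusted p below 0.05, where 44% of all 13927 tested genes did. Rrm2, the small and rate-limiting subunit of ribonucleotide reductase, had the smallest p (adjusted p = 0.00320, limma), followed by the licensing factor Cdt1 (0.00374, limma) and the clamp loader subunit Rfc5 (0.00641, limma). The largest p belonged to Rpa3, the smallest subunit of replication protein A (adjusted p = 0.893, limma), which ranged from 52.5 to 91.4 CPM over all libraries.

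Promoters of the replication genes are shown here because the members share a sequence feature that did not enter their choice. RefSeq promoters (GRCm38.p6; 250 bases before to 50 after a transcription start) were found for 31 of the 38 genes, 35 promoters in all out of 32851 in the table. The letters TTTCCCGC, TTTCGCGC, TTTGCCGC and TTTGGCGC, spellings of the E2F site read on both strands, occurred in 37.14% of the 35 member promoters, against 3.9% of the promoters of tested genes and 2.26% of all promoters. By gene, 13 of 31 members held at least 1 of these words (41.94%), against 4.7% of tested genes. CCAAT, the NF-Y box, was in 60.0% of member promoters and 37.41% of all promoters, and the CHR words TTTGAA and TTCGAA, an element of genes expressed late in the cell cycle, in 17.14% and 19.23%. A match is only a run of letters, and its absence says only that the run is not in this window. The promoters of 4 genes on which the results turn follow, 5′ to 3′ on the gene's strand, with E2F and CCAAT words in capitals; Orc1 holds 1 E2F word and CCAAT words in both orientations, Cdt1 holds 1 E2F word, Rrm2 holds CCAAT and none of the E2F words, and Rfc5 holds neither an E2F nor a CCAAT word.
Orc1 promoter, chr4:108579204-108579503, + strand: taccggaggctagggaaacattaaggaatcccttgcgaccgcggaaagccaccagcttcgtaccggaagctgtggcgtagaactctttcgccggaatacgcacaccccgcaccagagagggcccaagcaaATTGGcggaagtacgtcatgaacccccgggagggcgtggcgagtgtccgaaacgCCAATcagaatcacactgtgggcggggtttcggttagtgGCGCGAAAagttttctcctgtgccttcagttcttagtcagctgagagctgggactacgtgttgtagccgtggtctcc
Cdt1 promoter, chr8:122567765-122568064, + strand: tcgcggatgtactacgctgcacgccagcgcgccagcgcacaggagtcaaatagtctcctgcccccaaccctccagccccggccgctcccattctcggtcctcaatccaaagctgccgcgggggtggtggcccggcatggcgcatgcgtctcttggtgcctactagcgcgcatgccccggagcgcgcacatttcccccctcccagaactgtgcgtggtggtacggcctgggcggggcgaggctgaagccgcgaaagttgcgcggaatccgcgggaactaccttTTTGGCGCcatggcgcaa
Rrm2 promoter, chr12:24708004-24708303, + strand: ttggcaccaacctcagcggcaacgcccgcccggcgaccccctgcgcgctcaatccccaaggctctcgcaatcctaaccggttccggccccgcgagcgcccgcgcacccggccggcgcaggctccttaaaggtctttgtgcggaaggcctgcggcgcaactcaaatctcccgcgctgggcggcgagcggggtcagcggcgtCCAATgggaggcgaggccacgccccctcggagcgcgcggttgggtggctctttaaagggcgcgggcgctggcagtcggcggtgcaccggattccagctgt
Rfc5 promoter, chr5:117388974-117389273, - strand: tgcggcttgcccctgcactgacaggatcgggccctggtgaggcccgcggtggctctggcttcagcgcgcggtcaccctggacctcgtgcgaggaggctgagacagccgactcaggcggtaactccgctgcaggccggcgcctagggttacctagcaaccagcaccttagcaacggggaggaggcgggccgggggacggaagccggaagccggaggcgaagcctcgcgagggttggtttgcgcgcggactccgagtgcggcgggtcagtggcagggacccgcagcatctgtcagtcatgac

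The E2F words of the other 11 members are shown with the flanking bases so that their shared core can be compared across roles; only the word nearest the start is given for each gene, and capitals mark it. Words overlap each other in the Mcm5 and Mcm6 promoters, and the CCAAT box of Mcm7 shares a base with its E2F word.
Cdc6, chr11:98908003-98908030, + strand: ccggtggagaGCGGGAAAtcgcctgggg
Mcm3, chr1:20820276-20820303, - strand: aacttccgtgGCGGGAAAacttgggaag
Mcm5, chr8:75109350-75109377, + strand: aagaactttcGCGCCAAAacgtccagcc
Mcm6, chr1:128359735-128359762, - strand: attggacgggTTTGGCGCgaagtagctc
Mcm7, chr5:138171850-138171877, - strand: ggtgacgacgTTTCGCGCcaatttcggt
Gins3, chr8:95633508-95633535, + strand: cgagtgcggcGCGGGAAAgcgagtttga
Pola1, chrX:93632276-93632303, - strand: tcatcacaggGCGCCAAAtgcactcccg
Pold1, chr7:44548766-44548786, - strand: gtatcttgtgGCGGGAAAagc
Pole2, chr12:69228163-69228190, - strand: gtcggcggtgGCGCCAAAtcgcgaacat
Rfc3, chr5:151651191-151651218, - strand: tttcgcgctcGCGGGAAAactctactgt
Lig1, chr7:13278842-13278869, + strand: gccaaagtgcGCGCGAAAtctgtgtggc
Counted from the start base as 0, the words of the Cdc6 and Pola1 promoters began at -138, that of Mcm5 at -149, that of Rfc3 on the start base itself, and that of Pold1 at 39.

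Leukemic and non-leukemic double mutants carry the same alleles, so this comparison sets the leukemic state beside the same genotype without leukemia. Replication genes were higher in leukemic LSK cells: 20 of 38 rose and none fell (limma, adjusted p below 0.05 over all tested genes), where 9.04% of all tested genes rose and 15.2% fell. The median log2 change of the 38 was 0.85, with 37 positive and 1 negative, while the median of all tested genes was -0.10. In 28 members the lowest leukemic library lay above the highest non-leukemic one (19.7% of all tested genes), and only in Rfc2 did all leukemic libraries lie below (23.4% of all tested genes).

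Of the 4 origin licensing genes, 3 rose. Orc1, the ATPase subunit of the origin recognition complex whose promoter is printed above (gene at chr4:108579423-108614833 of GRCm38, + strand), had 31.6, 104 and 65.8 CPM in leukemic libraries, against 17.2, 19.8 and 14.0 CPM in non-leukemic double mutants. The groups did not overlap, with leukemic library 2 far above the others, and the log2 change was 1.83 ± 0.37 (SE; 3.56-fold; limma adjusted p = 0.00531). Orc6, another subunit of that complex, had 112, 206 and 166 CPM in leukemic libraries, against 70.7, 70.7 and 77.6 CPM in non-leukemic double mutants, a log2 change of 1.10 ± 0.23 (limma adjusted p = 0.00669). Cdc6, the ATPase that works with the complex to load the helicase, rose by 1.46 ± 0.40 on the log2 scale (limma adjusted p = 0.0186), while its partner Cdt1 did not pass the test (log2 change 1.39 ± 0.60, limma adjusted p = 0.106). The Cdt1 libraries nevertheless did not overlap, at 179.9, 319 and 247 CPM in leukemic cells and 73.7, 116 and 93.1 CPM in non-leukemic double mutants.

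Of the 7 genes of the helicase role, which counts Mcm10 with the ring subunits, 6 rose: Mcm2, Mcm3, Mcm4, Mcm5, Mcm7 and Mcm10, the last a factor that helps to start the loaded helicase. Log2 changes in this role ran from 0.85 to 1.33, led by Mcm10 at 1.33 ± 0.32 (limma adjusted p = 0.0116). Mcm6, the remaining ring subunit, had the same direction but a larger error, 0.87 ± 0.57 (limma adjusted p = 0.274). Of Cdc45 and the 4 GINS subunits, which complete the active helicase, Gins1 and Gins2 rose (0.74 and 0.85), and Cdc45, Gins3 and Gins4 had log2 changes of 0.61, 0.36 and 0.44.

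Nucleotide supply held the largest single change. Rrm2 (chr12:24708241-24714146, + strand) had 388, 1269 and 832 CPM in leukemic libraries, against 179, 190.1 and 133 CPM in non-leukemic double mutants. Every leukemic library was above every non-leukemic one, by 4.48-fold in the fit (log2 change 2.16 ± 0.45, limma adjusted p = 0.00604). Its partner Rrm1, the large catalytic subunit, had 813, 1813 and 1069 CPM in leukemic libraries, against 486, 504 and 349 CPM in non-leukemic double mutants (log2 change 1.40 ± 0.32, limma adjusted p = 0.00880). Tk1, which salvages thymidine, rose by 1.02 ± 0.24, whereas Tyms, which makes thymidylate afresh, changed by 0.28 ± 0.21 and did not pass (limma adjusted p = 0.347).

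Among the genes of strand synthesis the changes were less even. Prim2, the large primase subunit, had 92.1, 173 and 117 CPM in leukemic libraries, against 56.9, 59.0 and 45.5 CPM in non-leukemic double mutants (log2 change 1.20 ± 0.25, limma adjusted p = 0.00644). The groups were apart, yet Prim1, Pola1 and Pola2 of the same complex had log2 changes of 0.42, 0.30 and 0.56 and missed the threshold. Rpa2, the middle subunit of replication protein A, had 275, 373 and 286 CPM in leukemic libraries, against 175, 168 and 159 CPM in non-leukemic double mutants (log2 change 0.88 ± 0.18, limma adjusted p = 0.00603). Rpa1, its largest subunit, rose as well (0.96), and Rpa3 did not pass (0.13). The clamp Pcna and the loader subunit Rfc4 rose (0.68 and 1.20), and so did Lig1, the ligase that seals Okazaki fragments, with 253, 480 and 352 CPM in leukemic libraries, against 239, 237 and 191 CPM in non-leukemic double mutants (0.66 ± 0.21, limma adjusted p = 0.0387). None of Pold1, Pole and Pole2, genes of the leading- and lagging-strand polymerases, passed the test, with log2 changes between 0.49 and 0.63. Rfc1 and Rfc2, the large and a small subunit of the clamp loader, had log2 changes of 0.03 and -0.22.

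**Figure D2:**
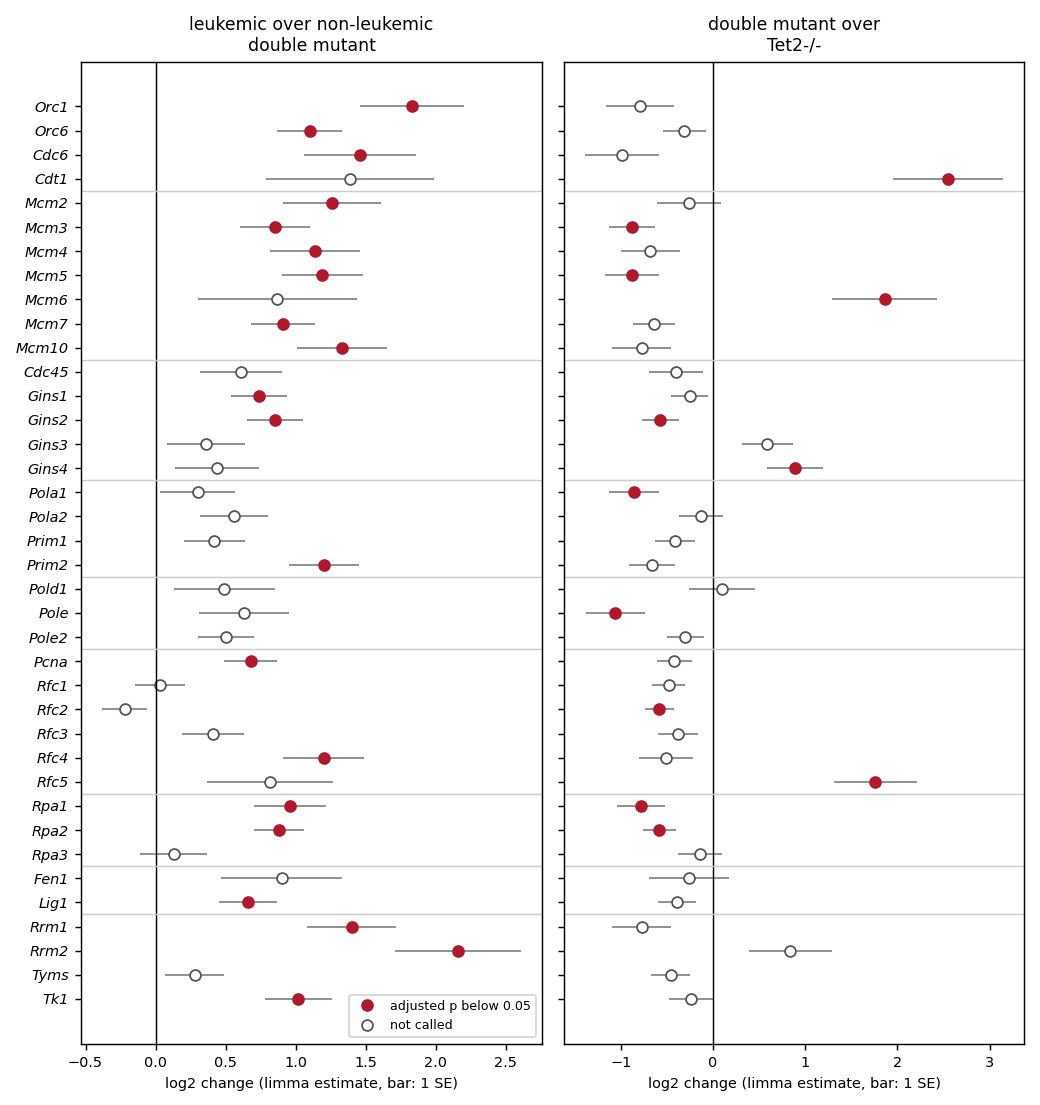
Limma log2 change of each replication gene (points, bars 1 SE, n = 3 libraries a group) in 2 comparisons, with genes in rows by role and filled points past an adjusted p of 0.05. In leukemic against non-leukemic double mutants nearly all points lie right of 0; in double mutants against Tet2-/- Cdt1, Mcm6 and Rfc5 lie far right while most other points lie left of 0.

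The leukemic libraries were ordered alike by almost every gene. Library 2 was the highest of the 3 for 37 of 38 genes (37.2% of all tested genes). Library 1 was the lowest for 35 of 38 (42.7% of all tested genes). In 35 genes library 2 was above 3 and 3 above 1, an order that 30.1% of all tested genes had. The summed erythroid markers followed the same order, 10 of the 11 were called higher than in non-leukemic double mutants, and the LSK marker sum ran the opposite way, at 3590, 1072 and 1911 CPM in leukemic libraries 1, 2 and 3. The part of other cell types in the result was not tested. With leukemic libraries 2 and 3 both left out, the median log2 change was 0.44 and 0 of 38 genes were called (1.19% of all tested genes), with the 1 library left assumed to vary like the other groups. The count of 20 was 25 without leukemic library 1, 7 without library 2 and 12 without library 3 (38%, 8.51% and 13% of all tested genes called in either direction), and it was 9 without non-leukemic library 3 (11.3% of all tested genes). Orc1, Orc6, Gins2, Prim2, Rpa2, Rrm1 and Rrm2 stayed past the threshold when any 1 of the 6 libraries was left out. Of these 7, only Rpa2 and Rrm2 also did in a fit of the 2 compared groups alone. That fit called 5 members (5.32% of all tested genes), and the 17 genes that lost their call in it had limma adjusted p from 0.0502 to 0.117.

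**Figure D3:**
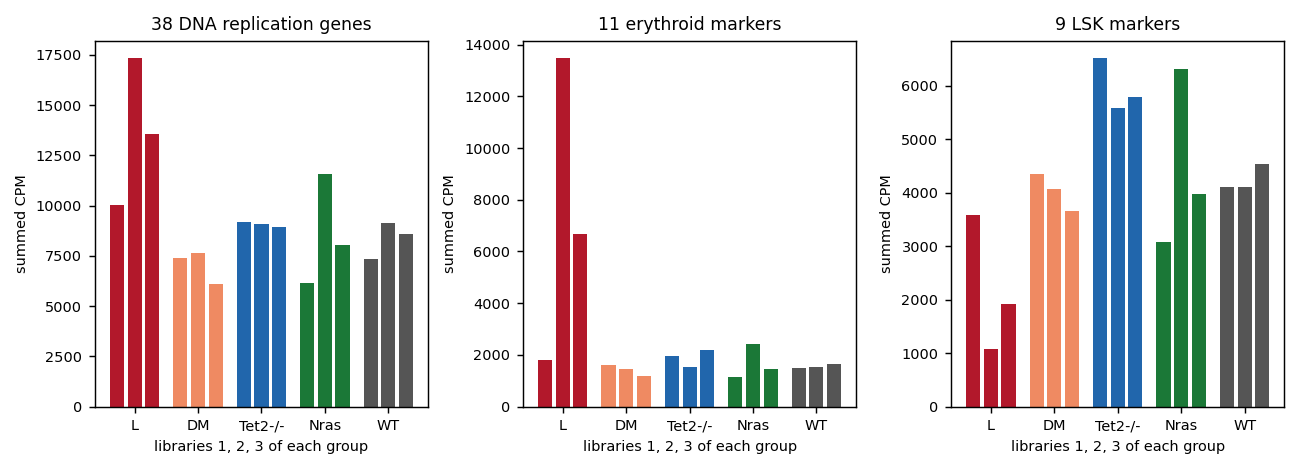
Summed CPM in each library (bars, 3 per group, axes from 0) of the replication genes and of marker lists. In the leukemic group the replication sum (10012, 17343 and 13544 CPM) and the erythroid marker sum (1788, 13480 and 6677 CPM) follow the same order of libraries, and the LSK marker sum (3590, 1072 and 1911 CPM) the reverse.

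Setting leukemic double mutants against WT asks how far the leukemic cells stand from normal LSK cells. Here 11 of 38 genes rose and none fell, where 10.8% of all tested genes rose and 24.7% were called in either direction. The genes called were Orc1, Orc6, Cdt1, Mcm10, Gins1, Prim2, Rfc4, Rpa2, Rrm1, Rrm2 and Tk1. They held 3 of 4 licensing genes and 3 of 4 nucleotide genes. Of the 7 genes of the helicase role only Mcm10 was called, and no subunit of the ring. The median log2 change was 0.58, with 35 positive and 3 negative (Rfc2, Rfc1 and Pola1, at -0.31, -0.17 and -0.11), beside a median of 0.00 over all tested genes. In 23 members all leukemic libraries lay above all WT libraries (24% of all tested genes).

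Cdt1 (chr8:122568015-122573554, + strand) stood furthest from WT, with 179.9, 319 and 247 CPM in leukemic libraries, against 30.2, 92.0 and 65.4 CPM in WT. The groups were apart in spite of the spread within WT, and the fitted change was 4.27-fold (log2 2.09 ± 0.60, limma adjusted p = 0.0234). Rrm2 had 388, 1269 and 832 CPM in leukemic libraries (log2 change 1.84 ± 0.45, limma adjusted p = 0.0115), against 160.5, 249 and 225 CPM in WT. Orc1 had 22.9, 26.7 and 22.2 CPM in WT, all below the lowest leukemic library (log2 change 1.33 ± 0.37, limma adjusted p = 0.0188). Orc6 stood at 81.7, 93.2 and 75.3 CPM in WT, also below every leukemic library (log2 change 0.91 ± 0.23, limma adjusted p = 0.0139). In these 4 genes no leukemic library reached down into the WT range. Tk1 had 145, 279 and 176 CPM in leukemic libraries and 98.4, 116 and 106 CPM in WT (0.85 ± 0.24, limma adjusted p = 0.0207). Gins1, a GINS subunit, had 49.0, 66.9 and 58.7 CPM in leukemic libraries and 34.3, 41.0 and 33.3 CPM in WT (log2 change 0.68 ± 0.20, limma adjusted p = 0.0228).

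This count rested on few libraries. It was 24 without leukemic library 1, 0 without leukemic library 2 and 2 without leukemic library 3, where 37.7%, 10.5% and 13.3% of all tested genes were called in either direction. It was 0, 6 and 1 without WT libraries 1, 2 and 3, where 9.74%, 16.8% and 11.7% of all tested genes were. Rrm1 lost its call with Y-linked RNA as a covariate (0.92, limma adjusted p = 0.0528). The count was also 4 (3 higher and 1 lower) under quantile, total-count or upper-quartile scaling (22.9%, 27% and 26.3% of all tested genes), where the lower gene was Rfc2. Under those 3 scalings and median centring the members' median log2 change stayed positive, between 0.27 and 0.52. Total-count scaling moved the median of all tested genes to -0.26. Erythroid markers were higher beside it as well, 9 of 11 past the threshold, and 3 of 9 LSK markers fell. The part of either in the result was not tested. In all, 0 members were called without leukemic libraries 2 and 3 (median log2 change 0.17; 1.64% of all tested genes called).

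**Figure D4:**
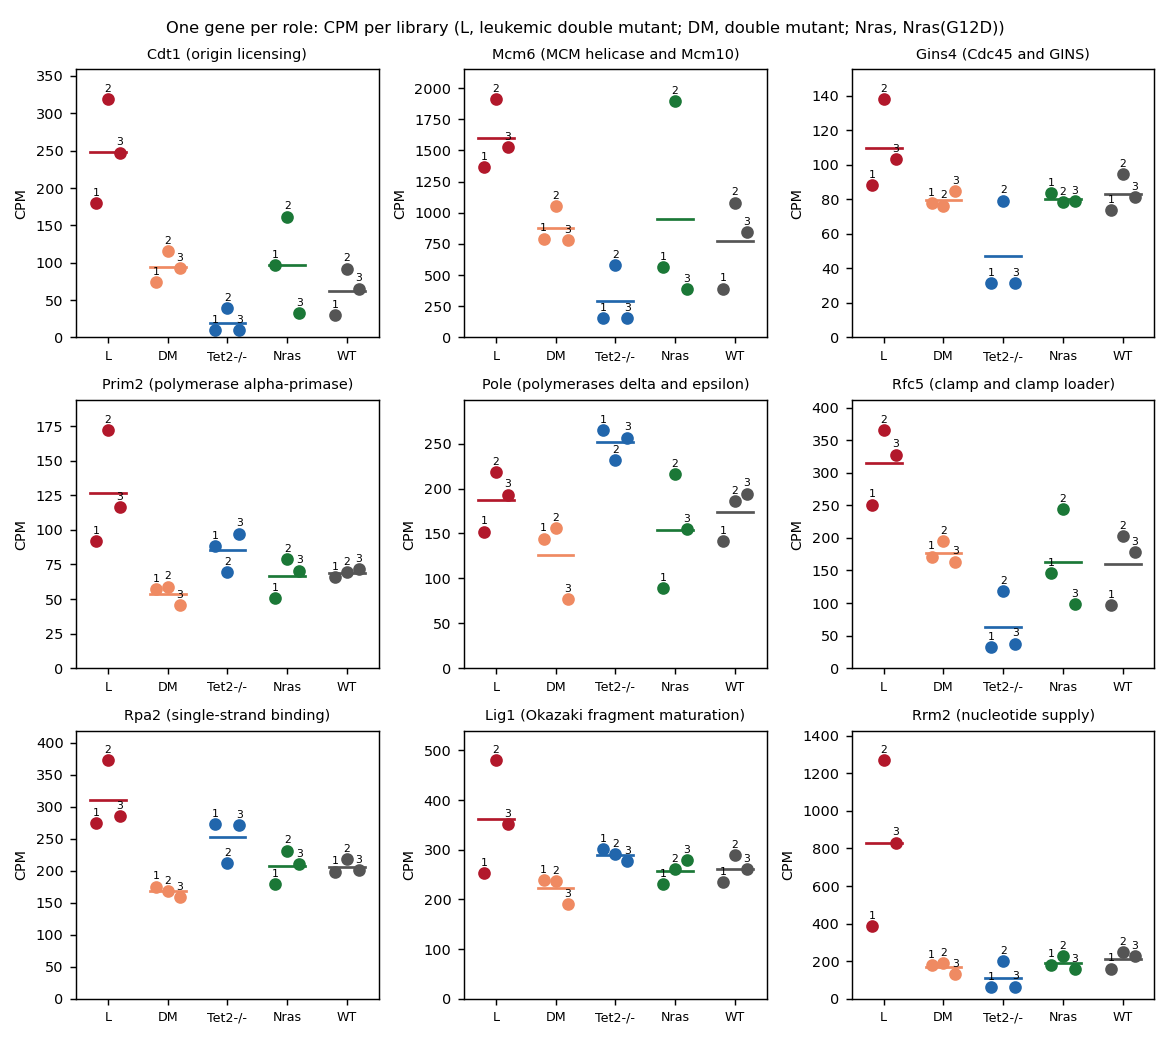
CPM in each library (points; line, group mean; linear axes from 0) for 1 gene per role, the one with the smallest F-test p, in leukemic double mutants, non-leukemic double mutants, Tet2-/-, Nras(G12D) and WT. Rrm2 reaches 1269 CPM in leukemic library 2, and in Tet2-/- the points of Cdt1, Mcm6, Gins4 and Rfc5 split into a low pair and 1 library near the WT values.

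Setting non-leukemic double mutants against Tet2-/- asks what Nras(G12D) adds to Tet2 loss. Of the 38, 4 were higher in non-leukemic double mutants than in Tet2-/- (Cdt1, Rfc5, Mcm6 and Gins4), where 20.1% of all tested genes rose, and 8 were lower (Rfc2, Mcm3, Pole, Pola1, Rpa2, Rpa1, Mcm5 and Gins2), where 8.57% of all tested genes fell and 28.7% were called in either direction. The median log2 change of the members was -0.42, with 7 positive and 31 negative, beside 0.00 over all tested genes. In 24 members all double-mutant libraries lay below all Tet2-/- libraries (27.5% of all tested genes) and in 3 they lay above (26% of all tested genes). Under quantile, median-centred and upper-quartile scaling the calls were 3 higher and 12 lower, 3 higher and 26 lower, and 3 higher and 16 lower (36.4%, 43.5% and 32.5% of all tested genes called in either direction). Median centring moved the median of all tested genes to -0.46. The members' median stayed negative under these and total-count scaling, between -0.89 and -0.37.

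The largest rise was in Cdt1, which had 73.7, 116 and 93.1 CPM in double mutants, against 9.60, 39.7 and 10.2 CPM in Tet2-/-. The groups were apart, and the change was 5.88-fold (log2 2.55 ± 0.60, limma adjusted p = 0.00931). The log2 change was 1.48 after correction for GC content and length (limma adjusted p = 0.0249). It lay between 2.20 and 3.22 with 1 library left out, with the call lost without Tet2-/- library 1. Without Tet2-/- libraries 1 and 3 it was 1.22. Rfc5 (chr5:117378103-117389047, - strand), a small clamp loader subunit, had 171, 196 and 164 CPM in double mutants, against 31.7, 118 and 37.5 CPM in Tet2-/- (log2 change 1.76 ± 0.45, limma adjusted p = 0.0125). Mcm6 (chr1:128331590-128359664, - strand) had 793, 1056 and 778 CPM in double mutants, against 154, 578 and 154 CPM in Tet2-/- (log2 change 1.86 ± 0.57, limma adjusted p = 0.0281). Cdt1, Rfc5 and Mcm6 were each lowest of their group in WT library 1 and in Nras(G12D) library 3. Within Tet2-/-, libraries 1 and 3 were far lower than library 2 in each of them. Gins4 followed the same pattern with overlapping groups, at 77.8, 76.3 and 84.6 CPM in double mutants and 31.7, 79.2 and 31.4 CPM in Tet2-/- (log2 change 0.89 ± 0.30, limma adjusted p = 0.0419), and its call was lost after correction for GC content and length (0.76, limma adjusted p = 0.0586) and with Y-linked RNA as a covariate (0.90, limma adjusted p = 0.0510).

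In the uncorrected fit the largest fall was in Pole. Pole (chr5:110286306-110337474, + strand), the catalytic subunit of polymerase epsilon, had 144, 156 and 77.1 CPM in double mutants, against 266, 232 and 257 CPM in Tet2-/- (log2 change -1.06 ± 0.32, limma adjusted p = 0.0249). Rfc2, a clamp loader subunit, had 361, 338 and 339 CPM in double mutants, against 578, 416 and 578 CPM in Tet2-/- (log2 change -0.58 ± 0.16, limma adjusted p = 0.0198). Mcm3 had 509, 505 and 395 CPM in double mutants, against 1001, 728 and 864 CPM in Tet2-/- (log2 change -0.88 ± 0.25, limma adjusted p = 0.0215). In all 3 genes the double mutants lay below every Tet2-/- library. Within the helicase ring, Mcm3 and Mcm5 fell, Mcm6 rose, and Mcm2, Mcm4 and Mcm7 did not pass (log2 changes -0.26, -0.68 and -0.64). After correction for GC content and length, Mcm4 and Mcm7 passed as well (-0.79 and -0.97, limma adjusted p = 0.0369 and 0.00728) and Mcm2 was at -0.76 (limma adjusted p = 0.0640). The same correction moved Pold1 from 0.10 to -1.53 (limma adjusted p = 0.00772), then the largest fall among the members. It gave 3 higher and 19 lower calls (37.9% of all tested genes called in either direction). Mcm5 lost its call with Y-linked RNA as a covariate (-0.86, limma adjusted p = 0.0511), and Gins2 with the replicate number as a block (-0.57, limma adjusted p = 0.0600). The 12 calls became 0 without Tet2-/- library 1, 17 without library 2 and 1 without library 3 (9.03%, 37.6% and 11.5% of all tested genes called in either direction). They were 7, 4 and 2 without double-mutant libraries 1, 2 and 3 (25%, 11.9% and 10.3% of all tested genes), and 0 without Tet2-/- libraries 1 and 3, with 1 library left (0.0215% of all tested genes).

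Tet2 loss alone, set against WT, gave no call among the 38 genes (limma; 0.23% of all tested genes were called, 0.108% higher and 0.122% lower), while 8 had an unadjusted p below 0.05, as did 3304 of the 13927 tested genes. Voom called 0, and voom with sample quality weights called 20, where it called 49.8% of all tested genes. The members leaned high, at a median log2 change of 0.26 with 29 positive and 9 negative, beside -0.01 over all tested genes. In 15 members all Tet2-/- libraries lay above all WT libraries (21.9% of all tested genes), and in the other 23 the groups overlapped. All libraries lay below WT in 12.9% of all tested genes. The 8 with an unadjusted p below 0.05 comprised Rfc5, Gins4, Cdt1, Mcm6, Rrm2 and Gins3 with negative changes (-1.55, -0.95, -1.85, -1.57, -1.16 and -0.68) and Rfc2 and Tyms with positive ones (0.49 and 0.46). Cdt1 had 9.60, 39.7 and 10.2 CPM in Tet2-/- against 30.2, 92.0 and 65.4 CPM in WT, with library 2 inside the WT range (limma adjusted p = 0.120). Rfc5 had 31.7, 118 and 37.5 CPM in Tet2-/-, against 97.0, 203 and 178 CPM in WT (limma adjusted p = 0.110). Gins4 had 31.7, 79.2 and 31.4 CPM in Tet2-/-, against 73.6, 94.4 and 81.4 CPM in WT (limma adjusted p = 0.119), again with library 2 within the WT range.

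Shares of members that stood apart in Tet2-/- libraries 1 and 3 are given beside those of all tested genes. In 9 genes (Cdt1, Mcm2, Mcm6, Gins3, Gins4, Pola2, Pold1, Rfc5 and Rrm2) Tet2-/- libraries 1 and 3 both lay below all WT libraries (34.1% of all tested genes), and in 25 genes both lay above them (35.3% of all tested genes). Against all 13 other libraries, 6 of them (Cdt1, Mcm6, Gins3, Gins4, Rfc5 and Rrm2) were lower in both (19.3% of all tested genes), and Pola1, Pole, Rfc1 and Rfc2 were higher in both (16.1% of all tested genes). These 6 and 4 members were no larger a share than among all genes. The 25 members above all WT libraries were a larger share than among all genes, and the 9 below them a smaller one. Without library 2, those same 6 genes fell and Rfc2 rose, 7 calls in all, where 16% of all tested genes were called (limma; log2 changes from -2.51 for Cdt1 to 0.65 for Rfc2). Both libraries are the pair whose levels fell with GC content. After correction for GC content and length, Cdt1 was at -1.14, Mcm6 at -1.51 and Rfc5 at -1.47, Mcm2 moved to 0.05 against -0.30 uncorrected and Pold1 to 0.51 against -0.48, and no member was called.

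Nras(G12D) alone against WT gave no call among the members and none among all tested genes (limma, 0% called). An unadjusted limma p below 0.05 was found for 0 members and for 577 of the 13927 tested genes. Voom called 0 members with or without sample quality weights. The median log2 change was -0.04, within a range of -0.26 to 0.50. The smallest p belonged to Gins1 (0.30 ± 0.20, limma adjusted p = 0.984), Cdt1 (0.50 ± 0.60) and Pole (-0.26 ± 0.32). Cdt1 had 97.3, 162 and 32.8 CPM in Nras(G12D), against 30.2, 92.0 and 65.4 CPM in WT, so the groups overlapped. Nras(G12D) library 2 had the highest value of its group in 22 of 38 genes (42.7% of all tested genes), among them Mcm6 at 1898 CPM beside 565 and 388 CPM in libraries 1 and 3. The same library had a neutrophil marker sum of 3821 CPM, against 100.6 to 414 CPM in all other libraries. The part of those cells was not tested. In Gins3 alone all Nras(G12D) libraries were below all WT libraries (6.53% of all tested genes), and in none were all above (5.52% of all tested genes).

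Non-leukemic double mutants against WT likewise gave no call (limma, 0.682% of all tested genes were called, 0.488% higher and 0.194% lower). An unadjusted limma p below 0.05 was found for 0 members and for 2119 of the 13927 tested genes. Voom called 0 members and voom with sample quality weights 9, where the weighted fit called 26.3% of all tested genes. The members leaned low, at a median log2 change of -0.23 with 32 of 38 below 0, and in 18 of them all double-mutant libraries lay below all WT libraries (20.8% of all tested genes). Gins2 had 38.2, 36.5 and 32.5 CPM in double mutants, against 45.4, 51.2 and 42.1 CPM in WT (log2 change -0.37 ± 0.20, limma adjusted p = 0.409). Mcm5 had 435, 439 and 294 CPM in double mutants, against 480.4, 567 and 562 CPM in WT (-0.48 ± 0.29, limma adjusted p = 0.495). Both pairs of groups were apart, yet neither passed the test, and Pole overlapped (-0.52 ± 0.32, limma adjusted p = 0.499).

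Between non-leukemic double mutants and Nras(G12D), no member was called (limma, 0.079% of all tested genes were called, 0.0503% higher and 0.0287% lower). Voom called 0 members with or without sample quality weights. Of the 13927 tested genes, 1032 had an unadjusted limma p below 0.05, and of the members 1 did. That gene was Gins2, with 38.2, 36.5 and 32.5 CPM in double mutants and 50.9, 46.4 and 55.6 CPM in Nras(G12D) (log2 change -0.51 ± 0.20, limma adjusted p = 0.589). Gins1, Rpa2 and Rfc4 were the other genes with all double-mutant libraries below all Nras(G12D) libraries (6.87% of all tested genes). No member had all above (6.74% of all tested genes), and the median over members was -0.21. Gins1 had 37.2, 32.6 and 34.4 CPM in double mutants, against 46.7, 39.0 and 47.6 CPM in Nras(G12D) (log2 change -0.35 ± 0.20, limma adjusted p = 0.685). Mcm5 had 435, 439 and 294 CPM in double mutants and 343, 828 and 560 CPM in Nras(G12D), with overlapping groups (-0.50 ± 0.29, limma adjusted p = 0.700).

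The interaction asks whether the 2 mutations together depart from the sum of their single effects on the log2 scale. No member was called and no other gene either (limma; 0% of all tested genes), 9 members had an unadjusted p below 0.05, voom called 0 and voom with sample quality weights 22, where the weighted fit called 42.5% of all tested genes. The 9 were Cdt1, Mcm6, Rfc5 and Gins4 on the positive side (2.05, 1.79, 1.76 and 0.93) and Rfc2, Gins2, Rpa2, Mcm3 and Mcm5 on the negative side (-0.65, -0.71, -0.58, -0.83 and -0.90). The smallest p was that of Rfc2 (interaction -0.65 ± 0.23, limma adjusted p = 0.153), next to Rfc5 (1.76 ± 0.63, limma adjusted p = 0.155). Without Tet2-/- library 2, 6 were called (12.1% of all tested genes), with Cdt1, Mcm6, Gins3, Gins4 and Rfc5 positive and Rfc2 negative.

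**Figure D5:**
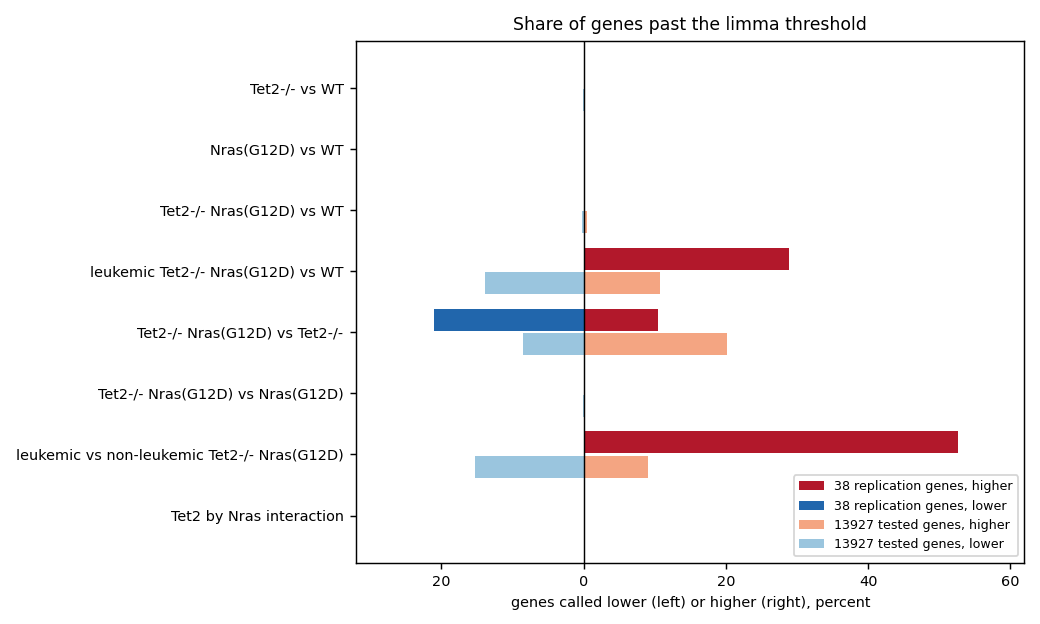
Percent of genes past the limma threshold, lower to the left and higher to the right of 0, for the replication genes and all tested genes in each comparison. In leukemic against non-leukemic double mutants 52.6% of the replication genes were higher, beside 9.04% of all tested genes; in double mutants against Tet2-/- 10.5% were higher and 21.1% lower, beside 20.1% and 8.57% of all tested genes.

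Calls in leukemic against non-leukemic cells fell on genes with and without the promoter words. Of the 13 genes with an E2F word, 6 rose (Orc1, Cdc6, Mcm3, Mcm5, Mcm7 and Lig1; median log2 change 0.85 over the 13), and of the 18 with a promoter entry but none of the words, 10 rose (median 0.89), Rrm2 among them. In double mutants against Tet2-/-, the genes with a word included risers (Cdt1 and Mcm6) and 3 genes that fell, while Rfc5 rose without one. These counts are descriptions and carry no test.

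Other genes of the pathway were read from a longer list. Of 42 further replication genes, 13 rose and 1 (Pold4) fell in leukemic against non-leukemic double mutants, with a median of 0.67 (31% higher and 2.38% lower, against 9.04% and 15.2% of all tested genes), and 14 rose against WT (33.3%, against 10.8% of all tested genes). Those with the smallest p against WT were Dbf4, the activating subunit of the kinase that fires origins, at a log2 change of 1.99, the fork protection factor Tipin at 1.02, and Chaf1a, a chromatin assembly subunit, at 2.26. In double mutants against Tet2-/- the same list had 9 higher and 4 lower genes, 21.4% and 9.52%, shares near the 20.1% and 8.57% of all tested genes. The smallest p there belonged to Dbf4 (2.41), Dut, which degrades dUTP (2.70), and the RNase H2 subunit Rnaseh2c (3.04).

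A list of 16 regulators of this transcription held E2F, Tfdp and pocket-protein genes together with Ccne1, Ccne2 and Cdk2. Of the 16, 5 rose in leukemic against non-leukemic double mutants and 7 in leukemic double mutants against WT. In double mutants against Tet2-/- 7 of 16 rose, and none fell in any of the 3 comparisons. These shares were 31.2%, 43.8% and 43.8%, against 9.04%, 10.8% and 20.1% of all tested genes. Cyclin E1 (Ccne1), which drives entry into S phase, had 23.8, 141 and 129 CPM in leukemic libraries, against 5.81, 18.7 and 11.5 CPM in non-leukemic double mutants (log2 change 2.81 ± 0.56, limma adjusted p = 0.00531). Every leukemic library was above every non-leukemic one, and WT stood at 6.14, 8.10 and 6.04 CPM. E2f4, a largely repressive E2F, had 192, 716 and 502 CPM in leukemic libraries, against 86.4, 170.4 and 118 CPM in non-leukemic double mutants (log2 change 1.77 ± 0.51, limma adjusted p = 0.0245). Of 22 mitosis genes, 4 rose in leukemic against non-leukemic double mutants (18.2%, against 9.04% of all tested genes), among them Mybl2 (1.91), a regulator of late cell-cycle genes, and cyclin B1 (Ccnb1, 1.48).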

How the data were processed

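RNA libraries of sorted LSK cells were made with a stranded mRNA kit, per the labels' protocols. STAR 2.4.0f1, limma 3.28.21, edgeR 3.14.0 and bcl2fastq appear in the submitters' processing notes, beside the builds NCBIM37 and mm10 with no role for either. The counter, the annotation and the strand setting were not given in the sources used here. The authors deposited 1 table of log2 CPM values, with 0.5 added per count and library sizes scaled by them. In it 100% of values gave back whole counts (tolerance 1e-06), and no 2 libraries of the same group were alike within sampling noise. From column names, the columns carrying BMT were assigned to leukemia and 1 irregularly named column to Nras(G12D) 2. From those values limma 3.58.1 (R 4.3.3) was fitted with an intensity trend to 13927 genes at or above 1 CPM in at least 3 of the 15 libraries, with 5 group means and 10 residual degrees of freedom. All tests are two-sided, with p-values adjusted by Benjamini-Hochberg over all tested genes in each of 8 comparisons. Comparisons that share a group share its libraries. CPM in the text is count over the deposited library size, without the added 0.5, and an error after a log2 change is 1 SE. A log2 change on this scale understates the change of low genes. The fit was tested on simulated data with known changes. The simulated libraries varied independently, with no GC trend and no mixture of cell types, so that test does not cover such differences between libraries. Transcript lengths, GC content and gene coordinates came from GENCODE M21 (GRCm38), promoters from RefSeq.

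For double mutants and Tet2-/-, all 3 same-numbered pairs of libraries deviated together (correlations 0.14, 0.11 and 0.12). The labels do not give a pairing, and the reported fit did not pair libraries. Replicate numbers entered only the alternative fit with a replicate block.

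The members and all lists were chosen with earlier results of these data known. Genes were named by a rule: all 38 by role, up to 6 called members with the smallest p in each comparison or, where none was called, the 3 smallest, and the smallest F-test p of each role. The genes behind small counts and the patterns over Tet2-/- libraries were named after their values were seen. Alternatives were another added count or filter, other scalings, voom, limma without trend or with robust moderation, only the compared groups, a replicate block, a covariate of Y-linked genes, GC and length correction, and leaving out each library. Leaving out 2 libraries at a time was added after the data were seen.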

Additional observations from a re-analysis of the deposited data

How the results depend on the processing

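Counts of called members moved as follows, with the percent of all tested genes called in either direction under the same setting in brackets. Voom with sample quality weights gave 20 (49.8%) for Tet2-/- against WT, 12 higher and 8 lower, 9 (26.3%) for double mutants against WT, 32 (60.5%) for leukemic double mutants against WT, 29 (63.2%) for double mutants against Tet2-/-, 32 (56.7%) for leukemic against non-leukemic double mutants and 22 (42.5%) for the interaction. For leukemic double mutants against WT, no filter gave 5 (9.19%), median centring 5 (24.2%), and quantile (22.9%), total-count (27%) and upper-quartile scaling (26.3%) and a fit of only the compared groups (19.3%) 4 each. For double mutants against Tet2-/-, no filter gave 4 (8.56%), median centring 29 (43.5%), upper-quartile scaling 19 (32.5%) and GC and length correction 22 (37.9%), the last with 3 higher and 19 lower. For leukemic against non-leukemic double mutants, only the compared groups gave 5 (5.32%). Without leukemic libraries 2 and 3 both leukemic counts were 0 (1.64% against WT, 1.19% against non-leukemic double mutants), as was that of double mutants against Tet2-/- without Tet2-/- libraries 1 and 3 (0.0215%). Fewer libraries remain by construction, and the cause of the other moves was not tested. Leaving out 1 library gave 0 to 7 for Tet2-/- against WT, 0 to 24 for leukemic double mutants against WT, 0 to 17 for double mutants against Tet2-/-, 7 to 25 for leukemic against non-leukemic double mutants, and 0 to 6 for the interaction. In Nras(G12D) against WT, Cdt1 (0.50) was at -0.33 with quality weights and between 0 and 1.15 without 1 library, and Pole (-0.26) between -0.55 and 0.08. In all, 150 recomputed counts stayed within 1.5 times of the reported count and 37 did not. The 150 include every reported count of 0 that stayed at 0. The tally therefore does not measure how stable the reported counts above 0 were. Depth limits Fen1 most, at 21 counts in its lowest library.

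With the replicate block, Tet2-/- against WT had 3 calls (Cdt1, Mcm6 and Rfc5, all lower), where 5.12% of all tested genes were called. The count was 13 for leukemic double mutants against WT (26.4% of all tested genes) and 11 for double mutants against Tet2-/- (27.7%). It was 21 for leukemic against non-leukemic double mutants (25.4%) and 0 elsewhere (at most 0.732%). Of all 30 same-numbered pairs 12 deviated together with a correlation over 0.1 (range -0.35 to 0.29), and 18 correlated best with their own number. Only for double mutants with Tet2-/- was every same-numbered pair over 0.1, which does not show that the numbers pair those libraries.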
